A study of Mus musculus with 30 samples.

Results

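The 10 genes described here are Trp53, which encodes the transcription factor p53, and 9 genes that p53 is known to switch on directly: Cdkn1a, Mdm2, Ccng1, Bax, Bbc3, Trp53inp1, Phlda3, Sesn2 and Eda2r. They were taken by name as a pathway, and each matched 1 of the 48709 genes counted in every tissue by its Ensembl identifier. RNA was measured in 5 tissues of adult mice of the C57BL/6 strain (brain, spleen, liver, kidney and muscle), either wild type (WT) or heterozygous for a loss of Ctcf (Ctcf+/-, here Het), with 3 libraries per genotype and tissue and 30 in all. The design text gives 3 mice of each genotype, so libraries of different tissues share mice, although no label ties a library to a mouse. The labels name no treatment for either genotype and describe the allele only as haploinsufficiency of Ctcf.

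CTCF is a DNA-binding zinc-finger protein that anchors chromatin loops. p53 is held at a low protein level by Mdm2, a ubiquitin ligase whose gene p53 itself activates, so the pair form a feedback loop. When DNA damage or another stress stabilises p53, its targets bring about cell cycle arrest (Cdkn1a), restraint of p53 or growth signalling (Mdm2, Ccng1, Phlda3, Sesn2) or cell death (Bax, Bbc3, Trp53inp1, Eda2r). Much of p53 control acts on the protein, so the level of Trp53 RNA alone is not a measure of p53 activity.

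p53 binds a pair of 10-base half-sites that lie end to end. The 300 bases around each annotated start (250 before it and 50 from it) were searched for the p53 consensus half-site, which reads the same on both strands, in RefSeq promoter windows of GRCm38.p6. Windows were found for 9 of the 10 genes, 12 windows in all. A half-site was present in 5 of these windows, those of Trp53, Cdkn1a (the upstream start), Mdm2, Ccng1 and Bax, against 8.36% of the 32851 windows of all genes. A pair of half-sites with a spacer of 0 bases, the C and the G of each core in place and up to 2 mismatches was present for Cdkn1a and Ccng1, against 0.326% of all windows. Both stretches are shown because these are the genes of the 10 whose windows hold such a pair, and both genes recur below among those highest in muscle. Each stretch has 120 bases and lies upstream of the start; capitals mark the half-sites and the paired sites.
Cdkn1a, chr17:29090859-29090978, plus strand, upstream of the first of 2 annotated starts: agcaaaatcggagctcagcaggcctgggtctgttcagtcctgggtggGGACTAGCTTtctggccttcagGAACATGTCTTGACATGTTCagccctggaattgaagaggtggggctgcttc
Ccng1, chr11:40755412-40755531, minus strand: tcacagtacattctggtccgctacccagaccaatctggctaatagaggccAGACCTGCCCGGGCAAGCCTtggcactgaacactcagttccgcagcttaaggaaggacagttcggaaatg
The Cdkn1a pair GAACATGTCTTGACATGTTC has 1 mismatch to the consensus, and the Ccng1 pair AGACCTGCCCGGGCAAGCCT also has 1, which lies between the C and the G of the core in its first 10 bases. The half-sites of the other genes were GGACTTGCCC upstream of Trp53, GAACTTGCCT upstream of Mdm2 and AGGCAAGCTT upstream of Bax. These matches describe letters in the reference sequence, and no binding was measured.

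Total counts per library ranged from 49.8 M to 131.6 M, so a gene with 0 counts could lie as high as 0.0228 to 0.0602 counts per 1 M counts (CPM); this floor covers counting error only. Libraries are called by genotype and by the number in their label, such as WT 2. The labels were checked first. Ctcf itself stood at 61.4% to 67.2% of its WT level in the 5 tissues, and in each tissue every Het library was below every WT library. The defining markers of brain, kidney, liver, skeletal muscle and spleen lymphocytes were present in all libraries of their own tissue. In spleen, libraries differed in other cell types: the summed level of 5 pancreatic enzyme genes was 1802 CPM in Het 2 and between 21.4 and 232.1 CPM in the other 5, and the summed level of 5 erythroid genes was 1387 CPM in WT 3 and 1878 CPM in Het 1 against 4232 to 7408 CPM elsewhere. Kidney markers summed to 9.94 to 20.8 CPM in the Het spleens and at most 0.42 CPM in the WT spleens, while liver markers summed to 31.7 to 40.6 CPM in the WT spleens and at most 0.32 CPM in the Het spleens. In kidney, skeletal muscle markers summed to 183.9 CPM in WT 3 and 248.1 CPM in Het 3, against 41.1 to 51.5 CPM in the other 4. Liver markers in kidney summed to 351.4 CPM in Het 3 and 61.8 to 145.2 CPM in the other libraries. Differences in liver and muscle stand beside the results they touch.

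The levels of the 10 genes in normal tissue were compared first, in the 15 WT libraries. Levels are given as FPKM, which is CPM divided by the exon length in kilobases, after scaling by the trimmed mean of M-values (TMM), so that genes of different length can be set side by side. Muscle and spleen held the highest level of 9 of the 10 genes. Muscle was highest for Cdkn1a, Mdm2, Ccng1, Phlda3 and Eda2r, spleen for Trp53, Bax, Bbc3 and Trp53inp1, and kidney for Sesn2. The top tissue exceeded the next one at an adjusted p under 0.05 (edgeR quasi-likelihood test, Benjamini-Hochberg over all genes) for 9 genes, all but Bbc3. In whole tissue, fewer cells of a type and less RNA per cell cannot be told apart.

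**Figure D1:**
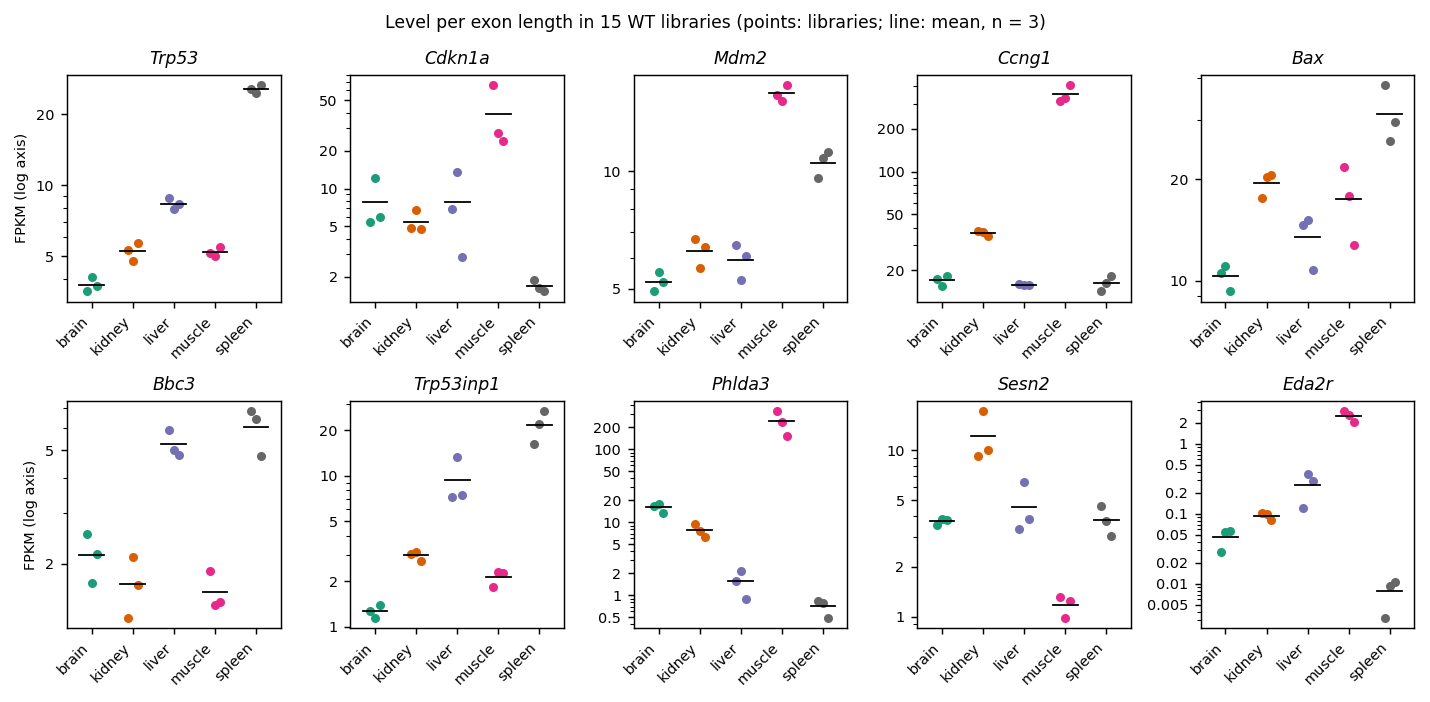
Level of each gene in the 15 WT libraries, in FPKM on a log axis, with 1 panel per gene; points are libraries and lines are means (n = 3). Ccng1, Phlda3 and Eda2r stand far above the other tissues in muscle, Trp53 and Trp53inp1 are highest in spleen, and Sesn2 is highest in kidney.

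Trp53 (chr11:69580359-69591873, GRCm38) was measured at 25.6, 24.6 and 26.7 FPKM in the WT spleens. In liver it was 8.84, 7.90 and 8.32 FPKM, in kidney 5.32, 4.74 and 5.67, in muscle 5.18, 5.01 and 5.44, and in brain 3.54, 4.07 and 3.74. Every spleen library was thus above every library of the other tissues, with a log2 difference from liver of 1.62 (adjusted p = 3.9e-09, edgeR). Liver was above kidney by 0.67 (adjusted p = 7.0e-05, edgeR), kidney and muscle differed by 0.01 (adjusted p = 0.964, edgeR), and muscle was above brain by 0.46 (adjusted p = 0.00108, edgeR). With libraries scaled by total counts alone both of these steps turned, kidney being above liver by 0.32 (adjusted p = 0.04, edgeR) and brain above muscle by 0.81 (adjusted p = 5.7e-05, edgeR). Mdm2, the ubiquitin ligase that restrains p53 (chr10:117688888-117710758), was 15.6, 15.1 and 16.6 FPKM in muscle and 9.58, 10.8 and 11.2 FPKM in spleen. Its means in kidney, liver and brain were 6.26 ± 0.55, 5.94 ± 0.63 and 5.21 ± 0.30 FPKM (SD, n = 3). Neighbours among these 3 tissues did not differ at the threshold after TMM (adjusted p = 0.604 and 0.155, edgeR). With total counts brain exceeded liver by 0.90 on the log2 scale (adjusted p = 8.9e-05, edgeR). The order of muscle and spleen for Mdm2 also rested on the scaling: muscle was higher by 0.59 on the log2 scale after TMM (adjusted p = 0.000283, edgeR) and lower by 0.76 when libraries were scaled by total counts alone (adjusted p = 0.000364, edgeR).

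The scaling matters because TMM raised levels in liver by 2.15-fold and in muscle by 2.41-fold relative to brain, compared with total counts, and left kidney and spleen within 1.08-fold and 0.955-fold. Among the 40 pairs of tissues next to each other in a gene's order, 24 differed at the threshold after TMM and 25 with total counts. Of the 24, 16 passed in the same direction with total counts, 3 did not pass, 3 passed in the opposite direction (2 of Trp53 and 1 of Mdm2) and 2 turned without passing (muscle over brain for Trp53inp1 and liver over spleen for Phlda3). The highest tissue was the same under both for every gene but Mdm2. Orders among the lower tissues changed for 8 of the 10 genes, and only Bbc3 and Eda2r kept the whole order. With total counts Bbc3 in spleen also passed the threshold over liver (log2 difference 1.36, adjusted p = 3.5e-05, edgeR).

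Of the genes of arrest and growth control, Ccng1, which encodes cyclin G1 (chr11:40748552-40755311), was the most abundant of the 10 per length in 4 tissues. In muscle it reached 316.6, 333.2 and 410.3 FPKM, against 38.0, 37.5 and 34.7 FPKM in kidney, the next tissue. After TMM, brain, spleen and liver had similar means of 17.0 ± 1.4, 16.2 ± 2.0 and 15.8 ± 0.1 FPKM (SD, n = 3). Muscle exceeded kidney by 3.27 on the log2 scale (adjusted p = 1.9e-10, edgeR), and kidney exceeded brain by 1.12 (adjusted p = 5.5e-06, edgeR). Brain and spleen differed by 0.07 (adjusted p = 0.658) and spleen and liver by 0.03 (adjusted p = 0.883), both by edgeR. With total counts the means were 23.7 FPKM in brain, 23.9 in spleen and 10.3 in liver. Brain then exceeded liver by 1.20 on the log2 scale (adjusted p = 9.9e-06, edgeR).

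Phlda3 encodes a small pleckstrin-homology protein that competes for membrane lipids and restrains Akt (chr1:135766119-135769136). After TMM its mean in muscle was 343-fold that in spleen. Among the 10 genes only Eda2r approached this range (323-fold, with a low end in spleen that rests on a few counts). With total counts the range of Phlda3 was narrower, with means of 139.8 FPKM in muscle, 1.02 FPKM in spleen and 0.99 FPKM in liver. Its level was 332.6, 238.4 and 150.8 FPKM in muscle and 16.9, 18.0 and 13.6 FPKM in brain. Kidney had 9.54, 7.67 and 6.38 FPKM, liver 1.58, 2.18 and 0.90, and spleen 0.82, 0.79 and 0.49. All 4 neighbouring steps of this order passed the threshold, with log2 differences of 3.90 between muscle and brain (adjusted p = 9.3e-08, edgeR), 1.04, 2.34 and 1.15. The last step, liver over spleen, was 0.04 in the opposite direction with total counts (adjusted p = 0.940, edgeR).

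Cdkn1a, which encodes the cyclin-dependent kinase inhibitor p21 (chr17:29090979-29100722), was 66.4, 27.3 and 23.7 FPKM in the 3 WT muscles. It was 5.39, 12.1 and 5.97 FPKM in brain, 4.86, 6.81 and 4.74 in kidney, 6.90, 13.5 and 2.88 in liver, and 1.87, 1.62 and 1.53 in spleen. Muscle libraries all lay above those of the other tissues, and spleen libraries all lay below. The step from muscle to brain was 2.32 on the log2 scale (adjusted p = 0.000758, edgeR) and the step from kidney to spleen 1.71 (adjusted p = 0.00628, edgeR), while brain, liver and kidney could not be ordered (adjusted p = 0.992 and 0.409, edgeR). With total counts the step from muscle to brain was 1.06 (adjusted p = 0.0486, edgeR). Sesn2, which encodes sestrin 2, an inhibitor of growth signalling through mTORC1 (chr4:132492032-132510501), had the reverse position in muscle. Its level was 9.17, 17.2 and 10.1 FPKM in kidney and 1.31, 0.99 and 1.25 FPKM in muscle, the lowest tissue. Liver, spleen and brain lay between, at 4.56 ± 1.65, 3.80 ± 0.79 and 3.75 ± 0.18 FPKM (SD, n = 3). Kidney exceeded liver by 1.41 (adjusted p = 0.000420, edgeR) and brain exceeded muscle by 1.67 (adjusted p = 6.9e-05, edgeR).

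Of the genes of cell death, Bax, whose protein permeabilises the outer mitochondrial membrane (chr7:45461697-45466898), was the most abundant of the 10 per length in spleen. It was 38.1, 26.0 and 29.6 FPKM there, and 17.6, 20.4 and 20.6 FPKM in kidney. Spleen exceeded kidney by 0.68 on the log2 scale (adjusted p = 0.00597, edgeR), and none of the later steps in its order passed the threshold after TMM, while 2 did with total counts. Of the exonic bases of Bax, 12.2% overlap those of another gene, Gm45808, and fragments there were not counted. Bbc3, which encodes the BH3-only protein PUMA (chr7:16308393-16318205), was 6.85, 6.43 and 4.76 FPKM in spleen and 5.87, 5.02 and 4.82 FPKM in liver. These overlapped and differed by 0.20 (adjusted p = 0.428, edgeR). Brain, kidney and muscle had 2.14 ± 0.41, 1.70 ± 0.41 and 1.60 ± 0.25 FPKM (SD, n = 3), a step down from liver to brain of 1.29 (adjusted p = 9.5e-05, edgeR), which was 0.19 with total counts (adjusted p = 0.422, edgeR).

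Trp53inp1, whose protein acts in p53-dependent cell death and in autophagy (chr4:11156431-11174379), had the same 2 highest tissues as Trp53 after TMM scaling. It measured 16.2, 22.1 and 26.8 FPKM in spleen and 7.26, 13.3 and 7.48 FPKM in liver. Kidney had 2.97 ± 0.21, muscle 2.13 ± 0.26 and brain 1.27 ± 0.12 FPKM (SD, n = 3). Spleen exceeded liver by 1.21 on the log2 scale (adjusted p = 0.000216, edgeR) and liver exceeded kidney by 1.66 (adjusted p = 2.3e-05, edgeR). Eda2r, a receptor of the tumour necrosis factor receptor family that binds ectodysplasin A2 (chrX:97333840-97377216), was low outside muscle. Its muscle levels were 2.93, 2.57 and 2.08 FPKM, against 0.12, 0.37 and 0.30 FPKM in liver. Kidney had 0.103, 0.099 and 0.081 FPKM, brain 0.029, 0.054 and 0.056 FPKM, and spleen 0.003, 0.009 and 0.011 FPKM, where the 6 libraries of both genotypes held 2 to 9 counts each. Muscle exceeded liver by 3.28 on the log2 scale (adjusted p = 2.1e-06, edgeR).

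Over all pairs of WT tissues, 79 of 100 comparisons of a gene between 2 tissues passed the threshold. Spleen differed from muscle and from kidney in all 10 genes, from brain in 8 and from liver in 7, where 75.2%, 75.5%, 79.8% and 72.9% of the 22933 genes tested differed. Muscle differed from brain and from liver in 9 genes each and from kidney in 6, against 72.3%, 64.2% and 64.4% of all genes. Kidney differed from liver in 8 genes and brain from kidney in 7 and from liver in 5, against 54.1%, 71.4% and 73.2%. The share of the 10 genes was above that of all genes in 6 pairs of tissues and below it in 4. After TMM the genes were split 5 and 5 between higher in muscle and higher in spleen, and 8 of the 9 that differed between muscle and brain were higher in muscle, which was 4 of 8 with total counts. In the Het libraries, fitted on their own, the top tissue again exceeded the next one at the threshold for the 9 genes of 10 named above. The difference for Ccng1 in muscle over kidney was 3.24, that for Trp53 in spleen over liver 1.54 and that for Eda2r in muscle over liver 3.99 on the log2 scale.

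The next comparison asked whether loss of 1 copy of Ctcf changed these genes in any tissue. None of the 10 genes was called in any tissue: 0 of 49 tests reached an adjusted p under 0.05 (edgeR quasi-likelihood test, 3 against 3 libraries, Benjamini-Hochberg over all genes of the tissue). Eda2r in spleen was too low to test. Among all genes, the share called was 0.242% in spleen, 0.0249% in muscle, 0.0211% in kidney, 0.0193% in liver and 0.0157% in brain. At an unadjusted p under 0.05 there was 1 of 49, Eda2r in kidney, against 3.52%, 6.45%, 6.44%, 4.56% and 2.96% of all genes in the same order of tissues. With the replicate number as a block there were 5 of 49, Bax and Eda2r in kidney, Cdkn1a and Phlda3 in muscle and Cdkn1a in liver, against 2.78%, 9.36%, 8.6%, 5.47% and 6.69% of all genes, and again none passed after adjustment. DESeq2 also called 0 of the 10 genes in each tissue and found the same 1 test at an unadjusted p under 0.05. The median log2 fold change (Het over WT) of the genes was 0.06 in muscle, 0.05 in kidney, 0.02 in spleen, -0.00 in liver and -0.01 in brain, and that of all genes tested lay between -0.01 and 0.00 in every tissue.

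**Figure D2:**
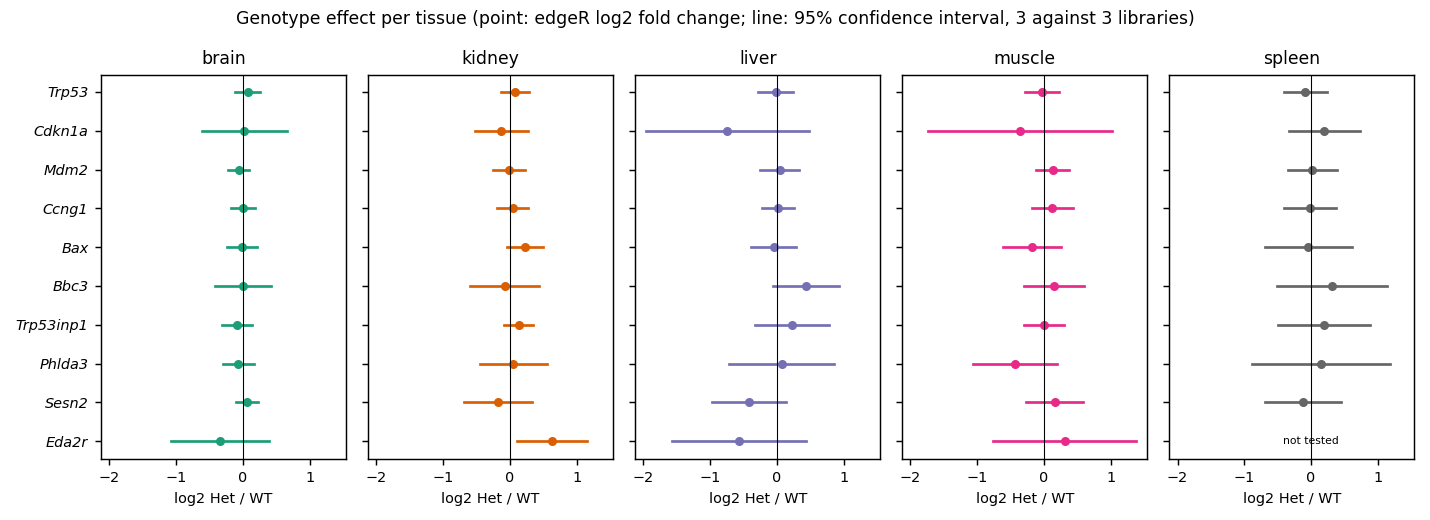
Log2 fold change (Het over WT) of each gene in each tissue, with its 95% confidence interval from edgeR (3 against 3 libraries); Eda2r was not tested in spleen. Intervals are narrow for Trp53, Mdm2 and Ccng1 and wide for Cdkn1a and Eda2r, and the interval of Eda2r in kidney alone leaves out 0.

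How firmly a difference can be bounded varied by gene. The 95% interval lay within 0.5 log2 units of 0 for 24 of the 49 tests and within 1 unit, a 2-fold difference, for 40. Trp53, Mdm2 and Ccng1 lay within 0.5 units in all 5 tissues. Cdkn1a and Eda2r did so in none, and Eda2r did not lie within 1 unit in any of its 4 tested tissues. Levels in this and the following comparisons are TMM-scaled CPM within a tissue, which serve to compare libraries and not genes. Trp53 in brain was 20.1, 22.7 and 21.2 CPM in WT and 23.7, 22.7 and 20.9 CPM in Het, a log2 fold change of 0.07 (95% interval -0.12 to 0.26). The spleen, where Trp53 is highest, gave 156.4, 151.2 and 154.0 CPM in WT and 131.5, 157.7 and 145.7 CPM in Het, a log2 fold change of -0.09 (95% interval -0.40 to 0.23). Genotypes overlapped in both tissues.

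Mdm2 and Ccng1 were as close between genotypes. Mdm2 in muscle measured 46.5, 44.2 and 49.1 CPM in WT and 55.6, 44.6 and 52.6 CPM in Het, a log2 fold change of 0.13 (95% interval -0.12 to 0.37). Ccng1 in muscle measured 652.0, 674.7 and 842.0 CPM in WT and 816, 708.3 and 841.2 CPM in Het, likewise 0.13 (95% interval -0.18 to 0.43). In brain, kidney, liver and spleen the log2 fold changes of both genes lay between -0.06 and 0.04. Bax, the death effector, had its largest difference in kidney, at 36.4, 41.6 and 42.2 CPM in WT and 41.9, 44.5 and 54.3 CPM in Het, a log2 difference of 0.23 (SE 0.12, adjusted p = 0.854, edgeR). The lowest Het kidney lay within the WT range, so the groups overlapped. With the replicate number as a block the difference was 0.22 (unadjusted p = 0.0330, adjusted p = 0.505, edgeR). Het 3, the highest kidney for Bax, also had the highest sums of liver and skeletal muscle markers, at 351.4 and 248.1 CPM. Their part in the Bax values was not tested.

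Eda2r in kidney was the 1 test of 49 in which the genotypes did not overlap; such separation was seen for 11.4% of all genes in kidney. Its level was 0.797, 0.755 and 0.621 CPM in WT and 1.33, 1.07 and 0.962 CPM in Het. Every Het kidney was higher than every WT kidney, on 61 to 126 counts per library. The summed level of 5 genes of dividing cells was also separate in kidney, at 13.1 to 14.3 CPM in WT and 46.6, 19.5 and 16.2 CPM in Het, and Het 1 was the highest library for both; their part in the Eda2r values was not tested. The log2 fold change was 0.63 (SE 0.23, 95% interval 0.10 to 1.15, unadjusted p = 0.0245, adjusted p = 0.659, edgeR), and the exact permutation test gave p = 0.1, its smallest possible value. No call follows from this. In the other tissues the same receptor went either way: its log2 fold change was -0.34 in brain, -0.57 in liver and 0.31 in muscle, with overlapping genotypes in each. The test of whether the genotype effect on Eda2r differed between tissues gave an adjusted p = 1 (edgeR; unadjusted p = 0.313).

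No separation was seen for any of the genes in brain, liver, muscle or spleen, where it occurred for 7.83%, 8.99%, 12.2% and 6.64% of all genes. In liver, Cdkn1a showed the largest difference of means of the 49 tests. Its level there was 9.99, 19.8 and 4.42 CPM in WT and 6.74, 10.2 and 3.51 CPM in Het. The ranges overlapped, and the log2 fold change of -0.74 had a 95% interval from -1.96 to 0.47 (adjusted p = 0.9999, edgeR); without WT 2 it was -0.08. Sesn2 and Eda2r in liver also had lower Het means, with log2 fold changes of -0.42 and -0.57, and WT 2 was the highest library for each; without it they were -0.10 and -0.26. Macrophage markers summed to 413.5 CPM in WT 2 and 230.7 to 269.3 CPM in the other 5 livers. Genes of dividing cells summed to 13.0, 35.5 and 9.06 CPM in the WT livers and 10.9, 11.5 and 33.4 CPM in the Het livers. WT 2 and Het 3 were thus the highest. The part of both lists in the liver values was not tested. Bbc3 in liver leaned the other way, at 8.12, 7.04 and 7.08 CPM in WT and 7.52, 9.30 and 13.4 CPM in Het (log2 fold change 0.44, SE 0.22, adjusted p = 0.9999, edgeR), and was 0.18 without Het 3.

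In muscle, Phlda3 was 304.1, 214.3 and 137.4 CPM in WT and 188.5, 168.1 and 127.3 CPM in Het, a log2 difference of -0.44 (SE 0.27, adjusted p = 0.885, edgeR). The Het values all lay below the WT mean, and 2 of the 3 lay above the lowest WT value. Without WT 1 the log2 fold change was -0.12, and with the replicate number as a block it was -0.38 (unadjusted p = 0.0170, adjusted p = 0.334, edgeR). Eda2r in muscle was 10.1, 8.73 and 7.14 CPM in WT and 20.4, 5.88 and 5.81 CPM in Het: 1 Het library was the highest of the 6 and the other 2 were the lowest, so that leaving it out turned the log2 fold change from 0.31 to -0.55 (adjusted p = 0.811, edgeR). Adipocyte markers summed to 164.9 to 289.3 CPM in the WT muscles and 284.3 to 452.2 CPM in the Het muscles. Kidney markers summed to 8.58 to 64.1 CPM in the WT and 0.10 to 5.08 CPM in the Het muscles. Genes of dividing cells were separate by genotype here too, at 0.77 to 2.87 CPM in the WT and 3.48 to 5.41 CPM in the Het muscles. The part of these lists in the muscle values was not tested. In spleen, Bbc3 was 22.0, 20.8 and 14.4 CPM in WT and 17.6, 36.8 and 17.0 CPM in Het, a log2 fold change of 0.32 that was -0.14 without Het 2 (adjusted p = 0.836, edgeR), the library with the high pancreatic enzyme RNA.

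Across tissues, the fit with genotype as a term shared by all 30 libraries called 0 of the 10 genes, against 0.194% of all genes. Shared log2 fold changes ran from -0.19 for Cdkn1a (95% interval -0.64 to 0.27) to 0.18 for Bbc3 (95% interval -0.06 to 0.42), and for Trp53 the value was 0.02 (95% interval -0.07 to 0.11). The test of whether the genotype effect differed between tissues also called 0, against 0.758% of all genes. At an unadjusted p under 0.05 neither test had any of the 10 genes, against 5.91% and 6.66% of all genes. Because tissues share mice, the p-values of the shared fit can be too small. The test of a difference between tissues leaves mice out as well, and how this moves its p-values was not tested.

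Libraries of 1 genotype also differed among themselves, and by how much depended on the gene. Cdkn1a, the arrest gene, had the widest within-group spread of the 10 in 3 tissues, with an SD on the log2 scale of 0.46 in brain, 0.93 in liver and 0.99 in muscle. Among genes with a level of at least 1 CPM these lay at the 97.5th, 98.6th and 99.5th percentile of their tissue. Trp53 itself was tight throughout: its SD was 0.08 to 0.10, at the 5.65th percentile in liver and the 35.7th in brain. Mdm2 and Ccng1 had SDs of at most 0.17 and 0.19.

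**Figure D3:**
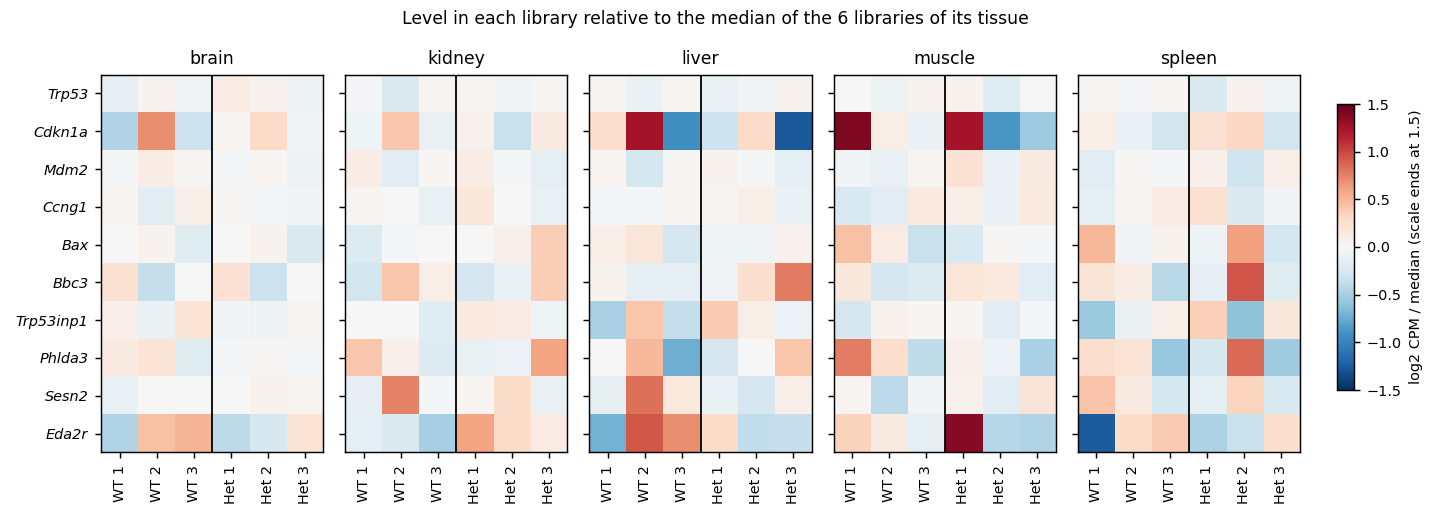
Level of each gene in each library relative to the median of the 6 libraries of its tissue, as log2 of the CPM ratio; blue is lower, red is higher, and the line in each panel divides WT from Het. Cdkn1a in muscle is high in WT 1 and Het 1, Cdkn1a in liver is high in WT 2 and low in Het 3, and Trp53 stays near 0 throughout.

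The high libraries of Cdkn1a were not of 1 genotype. In muscle the levels were 86.6, 35.0 and 30.8 CPM in WT and 78.4, 18.0 and 22.6 CPM in Het, so the library numbered 1 was far above the others in both genotypes. Liver markers summed to 19.9, 3.93 and 2.20 CPM in the WT muscles and 22.8, 9.68 and 10.2 CPM in the Het muscles. Adipocyte markers summed to 289.3, 240.4 and 164.9 CPM in the WT and 452.2, 284.3 and 354.9 CPM in the Het muscles. Library 1 was the highest of its genotype for both lists, but not for kidney markers or genes of dividing cells. The part of these lists in the Cdkn1a values was not tested. The brain values of Cdkn1a were 16.8, 37.2 and 18.6 CPM in WT and 23.5, 28.0 and 22.4 CPM in Het, with the library numbered 2 highest in both. Liver libraries ranked 2, 1, 3 for Cdkn1a in both genotypes. The labels do not say that libraries of the same number share a litter, day or batch. With the number as a block, the log2 fold change of Cdkn1a was -0.51 in muscle (unadjusted p = 0.00825, adjusted p = 0.233) and -0.63 in liver (unadjusted p = 0.00747, adjusted p = 0.515), both by edgeR. The genotypes overlapped in both tissues, and without the block the difference in muscle changed sign when WT 1 was left out.

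Other wide values were seen in kidney and spleen. Sesn2, the sestrin gene, was widest in kidney (SD 0.37), where WT 2 had 77.4 CPM and the other 5 libraries had 41.8 to 55.6 CPM. Phlda3 was widest in spleen (SD 0.57), at 1.94, 1.87 and 1.10 CPM in WT and 1.38, 2.93 and 1.13 CPM in Het. The spleen library Het 2, with the high pancreatic enzyme RNA, was the highest of the 6 for 5 of the 10 genes (Trp53, Cdkn1a, Bax, Bbc3 and Phlda3) and the lowest for 3 (Mdm2, Ccng1 and Trp53inp1). Trp53inp1 in spleen was 158.4, 217.6 and 247.3 CPM in WT and 299.0, 152.9 and 262.4 CPM in Het; its lowest libraries, WT 1 and Het 2, were those with the most pancreatic enzyme RNA, 232.1 and 1802 CPM. Their part in these values was not tested. In liver, WT 2 was the highest library for 6 of the 10 genes and the lowest for 2 (Mdm2 and Bbc3).

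The wider pathway was read from 50 further genes in 5 lists: regulators of p53, and other known targets of arrest and growth, cell death, repair, and metabolism and oxidation. None was called in any tissue (0 of 49 tested in brain, kidney and spleen, 0 of 48 in muscle and 0 of 47 in liver; edgeR). An unadjusted p under 0.05 was reached by 5 in muscle, 3 in kidney, 2 in liver and 1 each in brain and spleen, where it was reached by 6.45%, 6.44%, 4.56%, 2.96% and 3.52% of all genes. The genotypes were separate for 14.6% of the tested genes in muscle, 14.3% in kidney, 8.51% in liver, 8.16% in brain and 6.12% in spleen, near the shares of all genes given above. The median log2 fold change of the tested genes lay between -0.05 and -0.01 in every tissue. The medians of single lists ranged from -0.22, for arrest and growth in spleen (3 of 9 genes above 0), to 0.15, for the same list in kidney (7 of 9 above 0). All 6 repair genes in kidney had fold changes below 0, with a median of -0.12. Among all genes tested in kidney, 9479 of 18937 had fold changes above 0. This list was singled out from 25 combinations of list and tissue, and no other had all its genes on the same side of 0.

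**Figure D4:**
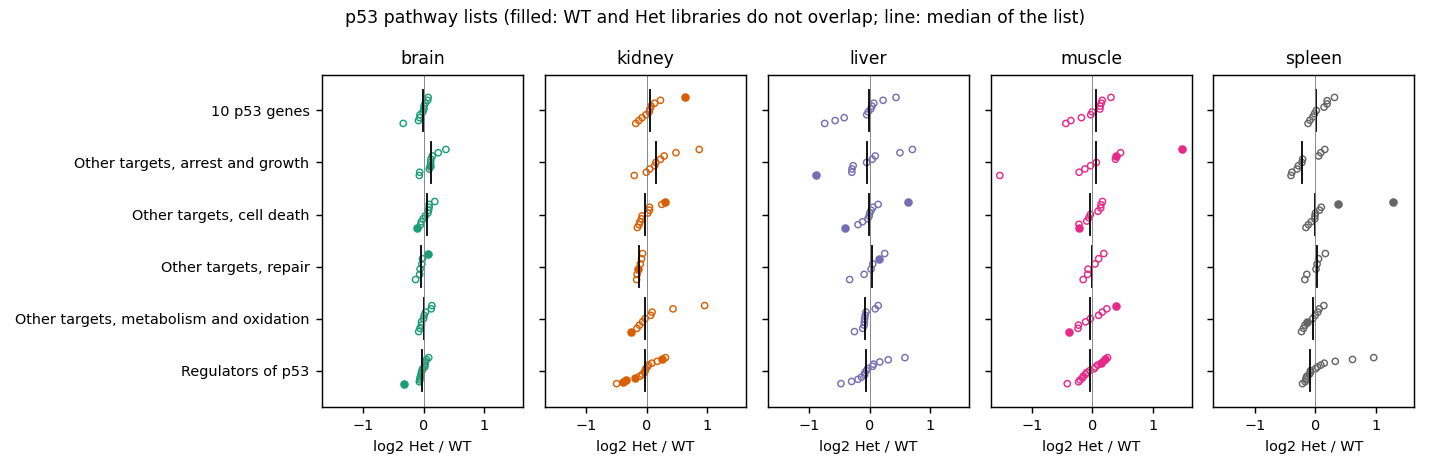
Log2 fold change (Het over WT) of the 10 genes and of 5 lists of other p53 pathway genes in each tissue; each point is 1 gene, filled where WT and Het libraries do not overlap, and lines are list medians. List medians lie between -0.22 and 0.15, and the filled points fall on both sides of 0.

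Among regulators, the checkpoint kinase gene Chek2 separated by genotype in 2 tissues. In kidney it was 6.50, 7.57 and 6.52 CPM in WT and 5.22, 5.76 and 5.35 CPM in Het (log2 fold change -0.33, SE 0.13, adjusted p = 0.682, edgeR). In brain it was 1.76, 1.65 and 1.51 CPM in WT and 1.04, 1.46 and 1.40 CPM in Het (log2 fold change -0.33, SE 0.18, adjusted p = 0.99999, edgeR). Atm, which encodes the kinase upstream of Chek2 in the response to double-strand breaks, had lower values in the Het kidneys (8.51, 7.90 and 5.68 CPM) than in the WT kidneys (10.6, 8.99 and 9.25 CPM), and its fitted log2 difference was -0.38 (SE 0.17, adjusted p = 0.765, edgeR). Neither kinase passed the threshold in any tissue.

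Of the other death genes, Tnfrsf10b, which encodes the TRAIL receptor, was higher in every Het library than in every WT library of kidney and spleen. Its kidney values were 2.57, 2.71 and 2.63 CPM in WT and 3.27, 3.58 and 2.88 CPM in Het, and its spleen values 2.06, 2.10 and 2.44 against 2.95, 2.67 and 2.97 CPM. The log2 fold changes were 0.30 in kidney (adjusted p = 0.864) and 0.38 in spleen (adjusted p = 0.99997), both by edgeR. Apaf1, the scaffold of the apoptosome, separated in brain with a log2 fold change of -0.11 and Trp53i11 in liver with -0.41, and neither passed the threshold. Gadd45a, an arrest and repair gene, separated in liver (-0.89) and, in the other direction, in muscle (0.39). Among the remaining arrest, repair and metabolic targets, Zmat3 separated in brain (0.10), Ercc5 in liver (0.16), Fdxr and Cpt1c in muscle (-0.39 and 0.39) and Sesn1 in spleen (-0.14), again without passing the threshold. Sesn1, the relative of Sesn2, measured 161.9, 169.0 and 162.1 CPM in the WT spleens and 144.1, 160.6 and 143.0 CPM in the Het spleens.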

How the data were processed

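The deposited tables hold raw fragment counts per gene, 1 table per tissue with 6 libraries each. The authors counted read pairs over exons of Ensembl release 86 (GRCm38) using featureCounts 1.5.0-p3, without strand or multi-overlap options, per the file headers. FastQC, STAR and DESeq2 are named in the submitters' processing notes, with versions not given in the sources used here. Total RNA was extracted with TRIzol, with an integrity number over 7, per the labels' protocols. The length of each gene is that in the deposited tables. Because fragments that overlap several genes were not assigned, genes with shared exons are undercounted.

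Counts were analysed in R 4.3.3 with edgeR 4.0.16: filterByExpr, TMM and the quasi-likelihood F-test, with p-values adjusted over all genes tested by the Benjamini-Hochberg method and calls made at an adjusted p under 0.05. Each tissue was fitted alone for genotype, the 15 WT libraries together for tissue, and all 30 libraries for the interaction and the shared effect. The fits were tested on simulated counts, with large changes in well-counted genes and the same spread set for every gene. This simulation does not show how the fits do for genes of wide spread, such as Cdkn1a and Eda2r. Within-group SDs are of log2(CPM + 0.1). Nothing states that libraries come from separate animals beyond the design text, so p-values measure the spread between these libraries. Promoter windows came from RefSeq. Alternatives were DESeq2 1.42.0, other size factors, limma-voom (limma 3.58.1), other filters, joint fits, a replicate block and leaving out each library. Same-numbered WT and Het libraries deviated together (every r over 0.1) in brain (0.207, 0.383 and 0.537) and kidney (0.209, 0.190 and 0.212), not in every pair of the other tissues; the block changed no call.

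The 10 genes and the lists were chosen with earlier results of these data known. Named in the text are the 10 genes, Ctcf and, of the 50 other pathway genes, up to 3 per tissue with the largest change among those whose genotypes did not overlap and whose mean was at least 1 CPM.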

Additional observations from a re-analysis of the deposited data

Results flagged for a closer look

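Gadd45a, a p53 target that acts in arrest and repair, had opposite differences in 2 tissues, with no overlap between genotypes in either. In liver it was 4.22, 5.03 and 5.67 CPM in WT and 2.24, 2.40 and 3.43 CPM in Het, a log2 fold change of -0.89 (SE 0.22, unadjusted p = 0.00369, adjusted p = 0.632, edgeR). In muscle it was 42.8, 48.1 and 50.7 CPM in WT and 60.6, 54.9 and 70.1 CPM in Het, a log2 fold change of 0.39 (SE 0.12, unadjusted p = 0.0104, adjusted p = 0.519, edgeR). The test of a difference between tissues gave an unadjusted p = 0.0777 and an adjusted p = 0.869 (edgeR). Of its exonic bases 19.1% overlap E230016M11Rik. Genotypes overlapped in brain, kidney and spleen, where its log2 fold changes were 0.11, -0.01 and -0.40. Gadd45a was singled out for this opposed pattern among the further pathway genes named above, which were themselves chosen for separation by genotype. Such separation occurred for 8.99% of all genes tested in liver and 12.2% in muscle. How often a search of this kind gives an opposed pair was not tested.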

How the results depend on the processing

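The count of the 10 genes called for genotype was 0 in each tissue under all 8 alternatives that kept every library and all 6 fits that left out 1, and 0 for the interaction and the shared effect under each of theirs. The smallest adjusted p in any setting was 0.233, for Cdkn1a in muscle once libraries were blocked by replicate number; the block gave log2 fold changes of 0.62 for Eda2r in kidney and 0.06 for Eda2r in muscle and changed no call. Among the 10 effects of at least 0.3 in size, 3 changed sign, each when 1 library was left out: Cdkn1a in muscle was 0.27 without WT 1, Eda2r in muscle -0.55 without Het 1 and Bbc3 in spleen -0.14 without Het 2. Over the fits that left out 1 library, these effects ranged from -1.30 to 0.27, from -0.55 to 0.61 and from -0.14 to 0.51. Of the 39 smaller effects, 26 changed sign in some setting. Between WT tissues, 71 to 84 of 100 comparisons passed over the alternatives, and Mdm2 in muscle over spleen became -0.76 with total counts. DESeq2 called more genes in all (28, 159, 69, 182 and 192 in brain, kidney, liver, muscle and spleen, against 3, 4, 3, 4 and 45 by edgeR). Depth limits Eda2r in spleen, on 2 to 9 counts per library, and 3 libraries per group limit what can be bounded for Cdkn1a and Eda2r.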
